A study of Gallus gallus with 54 samples.

Results

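The 153 genes described here were well detected in chicken heart and spleen and scarce in breast muscle. They were chosen by their levels in these same libraries, from the 24881 gene identifiers listed per file (21515 of them with any count). A level is given as CPM, the count of a gene divided by the total of its library and multiplied by 1000000, with no correction for gene length. A gene entered when its mean over the 18 libraries of a tissue was 20 CPM or more in both heart and spleen, when each of these means was at least 8 times the breast muscle mean, and when heart and spleen lay less than 8-fold apart. Of 3744 genes that met the minimum level in heart and spleen, 168 also met the 8-fold minimum over breast muscle, and 153 of these met the limit between heart and spleen. The same rule turned around gave 147 genes shared by heart and breast muscle and low in spleen, and 14 genes shared by breast muscle and spleen and low in heart.

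Chickens (Gallus gallus) of indigenous Ethiopian stock were sampled. Codes H1 to H9 are labelled as a high altitude breed that is not adapted to heat, and codes L1 to L9 as a low altitude breed that is adapted to it. Each of the 18 codes occurs once in heart, once in breast muscle and once in spleen, which gives 54 libraries of messenger RNA in 6 groups of 9. The labels do not say that a code is 1 bird, and they name neither age, sex, batch nor any treatment, so the error behind a p-value is the spread among libraries, which may be partly technical. The files pair no identifier with a gene symbol, and 0 identifiers matched the reference table of 25635 chicken genes. Genes are therefore named by identifier alone, without a role, and no defining marker of heart, muscle or spleen could be looked up. Of the 54 libraries, all 54 had their highest rank correlation with another library of the labelled tissue.

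Heart and breast muscle are both striated muscle, but the breast muscle of chickens is built for short bursts of flight. It consists mostly of fast, glycolytic fibres, packed with few kinds of very abundant contractile and metabolic transcripts. The heart beats without rest and holds, beside its muscle cells, a dense bed of vessels, valves and connective tissue. The spleen filters blood and houses lymphocytes and phagocytes, and in birds the red cells and thrombocytes that pass through it keep their nuclei. Genes shared by heart and spleen and low in breast muscle can thus belong to vessels, blood, supporting tissue, immune cells or other programmes. In tissue of mixed cells, fewer cells of a type and less RNA per cell cannot be told apart.

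Because heart, spleen and breast muscle means chose the genes, the levels are a description, and no test of tissue differences was made. Mean levels ran from 20.02 to 1558 CPM in heart with a median of 50.3, and from 21.1 to 3227 CPM in spleen with a median of 115. In breast muscle they ran from 0.0371 to 65.6 CPM with a median of 3.67. The spleen mean was the higher in 106 genes and the heart mean in 47. Both means lay within 2-fold of each other in 82 genes, the spleen was over 2-fold higher in 64, and the heart over 2-fold higher in 7.

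**Figure D1:**
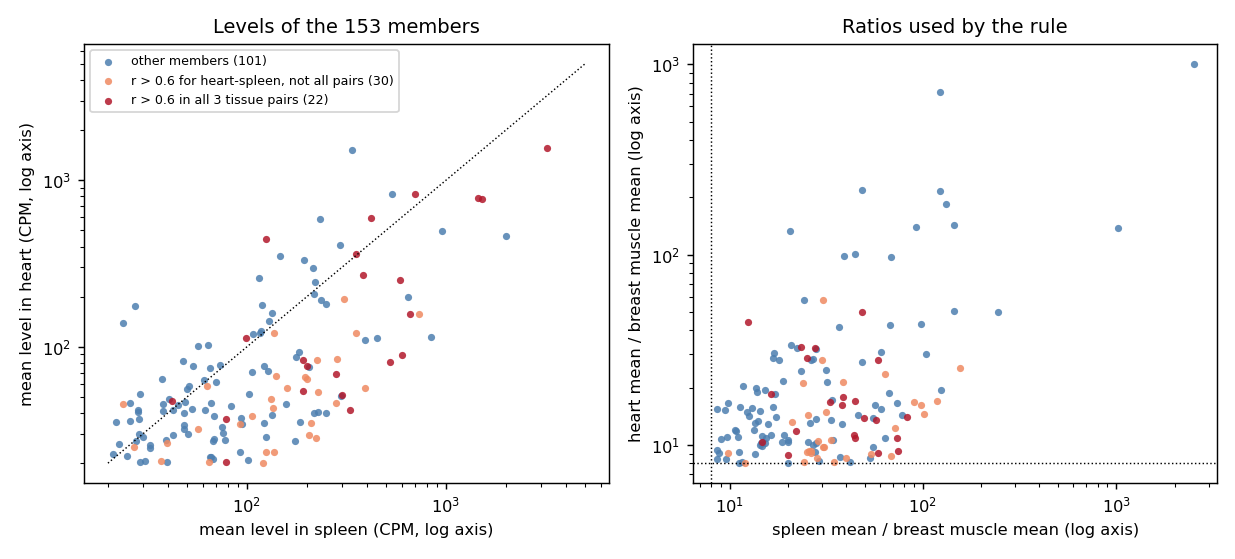
Each point is 1 of the 153 genes. The left panel plots the mean level over 18 heart libraries against that over 18 spleen libraries in CPM (dotted line, equal levels), and the right panel the ratios to the breast muscle mean (dotted lines, the 8-fold minimum), all on log axes. Colours give the groups of 22, 30 and 101 genes by co-variation over codes (r, Pearson's correlation), and more points lie on the spleen side of the diagonal, as in the count of 106 genes against 47.

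The smaller of the heart and spleen ratios to breast muscle had a median of 13.4-fold over the 153 genes. It reached 16-fold in 58 genes, 32-fold in 17 and 100-fold in 6. The highest, in ENSGALG00000029024, named after its values were seen, was 1004-fold against a breast muscle mean of 0.0371 CPM that rests on 8 counts in 18 libraries, 11 of them at 0. Many genes stood close to the minimum, with 40 members between 8- and 10-fold and 65 genes left out between 6- and 8-fold. ENSGALG00000008881 lay just inside at 8.02-fold, with means of 30.4 CPM in heart, 76.0 in spleen and 3.79 in breast muscle. ENSGALG00000001161 lay just outside at 7.997-fold, with 43.9, 266 and 5.48 CPM.

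Library by library, the separation was complete for about as many genes as not. In 80 of the 153 genes, every heart and spleen library lay above every breast muscle library. The same held for 4.81% of the 3744 genes at the minimum level and for 2.9% of the 21515 genes with a count. Since the rule used this contrast, nothing is read from that difference. Compared within a code, the number of genes with both heart and spleen at 8 times breast muscle or more ran from 49 in H1 to 144 in H6 and H7. Only 15 genes met it in all 18 codes, the median gene met it in 13, and 26 genes met it in 9 codes or fewer.

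The members steadiest between libraries of a group did not meet the 8-fold minimum in every code. The steadiest met it in 15 of 18 codes and the next in 13. ENSGALG00000016433 had 295 to 726 CPM in heart with a median of 468, 719 to 1358 in spleen with a median of 946, and 31.7 to 99.0 in breast muscle with a median of 43.5. All its heart libraries lay above all its breast muscle libraries, and its spleen libraries overlapped the heart only at the edge. ENSGALG00000002447 was next, at 118 to 456 CPM in heart, 164 to 296 in spleen and 10.3 to 55.9 in breast muscle. It kept heart and spleen at a like level and also left a gap to breast muscle.

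Toward the heart side, ENSGALG00000033522 had the highest ratio of heart to spleen, at 6.46. Its heart libraries held 32.1 to 372 CPM with a median of 166, its spleen libraries 6.63 to 51.1 with a median of 25.1, and its breast muscle libraries 0.382 to 2.90 with a median of 1.19. The code H5 was the lowest of the high altitude libraries in all 3 tissues. ENSGALG00000000558 followed at a ratio of 5.83, with 50.3 to 260 CPM in heart, 7.73 to 73.9 in spleen and 0 to 1.18 in breast muscle, the last from 37 counts in all. For both genes every heart and spleen library exceeded every breast muscle library.

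Toward the spleen side, ENSGALG00000024272 had the lowest ratio, at 0.125, and its levels were far from even. Its spleen libraries held 55.1 to 1487 CPM with a median of 156, its heart libraries 0.891 to 362 with a median of 7.27, and its breast muscle libraries 0.0842 to 34.9 with a median of 0.729. The heart median lay below the highest breast muscle library. Compared within a code, both tissues reached 8 times breast muscle in 10 of 18 codes. ENSGALG00000015709, at a ratio of 0.128, was steadier, with 130 to 438 CPM in spleen, 10.2 to 62.9 in heart and 0.763 to 14.9 in breast muscle.

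The 153 genes together took 0.963% to 5.36% of the counts of a heart library, with a median of 1.32%. They took 2.05% to 7.0% in spleen, with a median of 2.64%, and 0.0385% to 0.351% in breast muscle, with a median of 0.0735%. In heart the 3 highest shares were 5.36% in H4, 5.35% in L3 and 4.12% in H7, followed by 2.70% in H1. In spleen the same codes led with 7.0% in H4, 6.55% in L3 and 4.82% in H7, and H8 came next at 3.96%. In breast muscle H1 was highest at 0.351%, ahead of H4 at 0.208%, L3 at 0.196% and H7 at 0.134%. Library totals ranged from 9305788 to 15204434 counts over all tissues. Among hearts H4 had the lowest total, at 12373573 counts, with H7 at 13249481 and L3 at 13706856, and L6 the highest, at 15204434. The part of library totals in the shares was not tested.

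**Figure D2:**
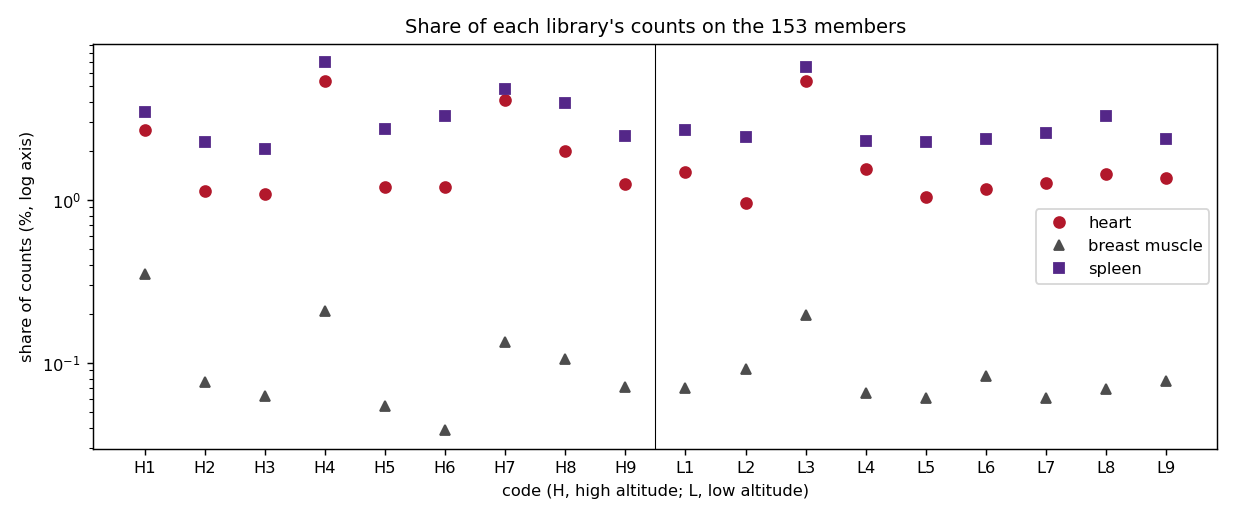
The share of each library's counts that fell on the 153 genes, in percent on a log axis, by code, for heart (circles), breast muscle (triangles) and spleen (squares), 1 library per point. H4, H7 and L3 stand above the other codes in heart and spleen, and H1, H4 and L3 in breast muscle.

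Other features of the libraries moved with these shares. The 20 most abundant genes held 32.2% of the heart counts in H4, 39.8% in H1, 41.1% in L3 and 41.9% in both H7 and H8, against up to 61.5% in L2, so less of the total was left for other genes in some hearts than in others. In breast muscle, 92 genes at least 32-fold higher there than in heart and spleen held 3.92% of the counts in H1, 7.22% in H8, 9.14% in H4 and 12% in H7, but 25.6% in L3 and 15.6% to 27.02% in the remaining 13 libraries. The part of these features in the shares was not tested. Scaling by trimmed means (TMM), which sets aside the genes with the most extreme ratios and levels, gave factors of 1.61 to 2.17 in spleen, 0.567 to 1.07 in heart and 0.503 to 1.31 in breast muscle. Under TMM-scaled CPM the rule chose 88 genes, 77 of them among the 153, and with the 20 most abundant genes left out of the totals it chose 244, with 137 of the 153.

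The members varied more between libraries of the same tissue and altitude than the other genes at the minimum level, and in breast muscle their counts are also lower by construction. The standard deviation (SD) of log2 CPM within groups had a median of 0.84 over the 153 genes in heart and 0.59 in spleen, and 0.93 in breast muscle. Over the 3591 other genes at the minimum level the medians were 0.43, 0.27 and 0.53. The highest mean SD over tissues belonged to ENSGALG00000016400, which ran from 5.65 to 3617 CPM in heart around a median of 21.6. It ran from 24.6 to 1827 CPM in spleen and from 0 to 45.6 in breast muscle. The rule used means, to which a few high libraries contribute much.

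Part of this variation ran in parallel in the 3 tissues of a code. For each gene, Pearson's r between 2 tissues was taken over the 18 codes, after centring log2 CPM within altitude, as a description of points that share a code but not a library. The median r over the 153 genes was 0.38 between heart and spleen, 0.35 when breast muscle was paired with heart and 0.16 when it was paired with spleen. Over the 3591 other genes at the minimum level it was 0.23, 0.24 and 0.11. Values spread widely, from -0.55 to 0.97 for heart and spleen, and 33 members had an r below 0 there.

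In 22 of the 153 members r exceeded 0.6 in all 3 pairs of tissues, against 61 of the 3744 genes at the minimum level, or 1.63%. These 3744 genes include the 153 members, so the 22 are among the 61. In a further 30 members r exceeded 0.6 between heart and spleen but not in all pairs, and 101 members remained. The highest r between heart and spleen was 0.97 in ENSGALG00000037629 and next 0.96 in ENSGALG00000000720. Between heart and breast muscle it was 0.96 in ENSGALG00000013575 and 0.94 in ENSGALG00000045085, and between breast muscle and spleen 0.91 in ENSGALG00000016400 and 0.90 in ENSGALG00000026970. With H4, H7 and L3 left out, 11 members exceeded 0.6 in all pairs, 10 of them among the 22, while 69 of the 3744 genes did so.

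**Figure D3:**
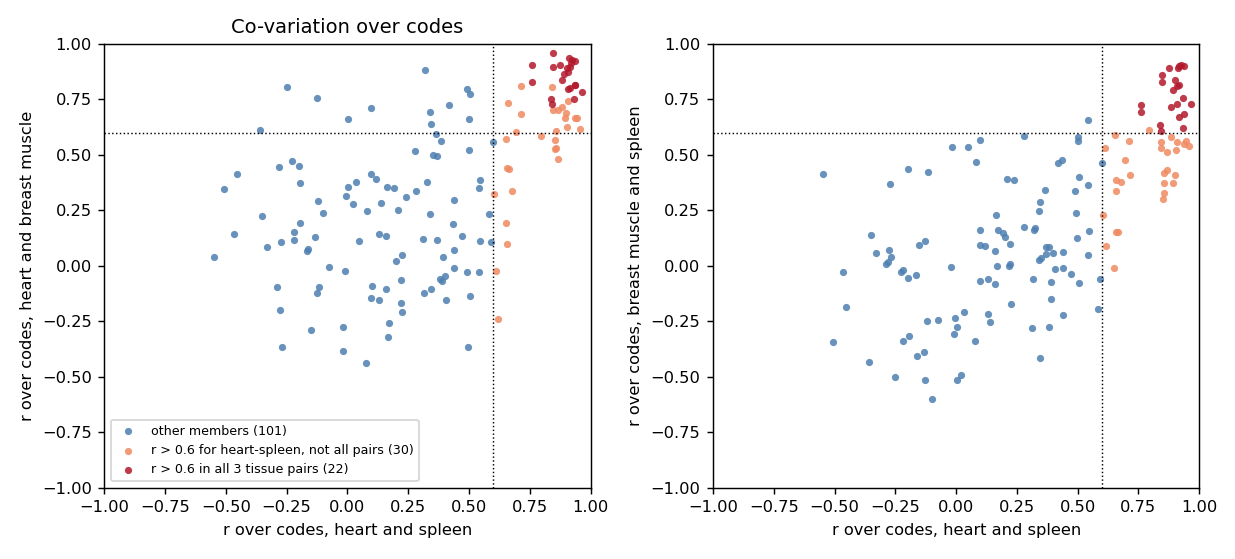
Each point is 1 of the 153 genes, placed by its Pearson r over 18 codes between heart and spleen (horizontal axes) and between heart and breast muscle (left) or breast muscle and spleen (right), with dotted lines at 0.6. The 22 genes above 0.6 in all 3 pairs fill the upper right corner, while the 101 remaining genes spread on both sides of 0.

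The genes with the highest smaller mean of heart and spleen belong to the 22. ENSGALG00000045085 had, in heart, 22.6 to 8657 CPM with a median of 262 at high altitude and 31.7 to 11378 with a median of 132 at low altitude. In spleen it had 330 to 16205 CPM with a median of 3531 at high altitude and 192 to 12054 with a median of 1237 at low altitude. In breast muscle it had 2.53 to 279 CPM with a median of 11.3 and 1.53 to 313 with a median of 6.08. Among low altitude hearts L3 stood alone at 11378 CPM, with the next, L6, at 147. Among high altitude hearts several were high, H4 at 8657 CPM, H7 at 4957 and H1 at 1286, and in high altitude breast muscle H1 at 279 and H4 at 200.045.

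ENSGALG00000041621 showed the same codes at a smaller range. Its heart libraries held 208 to 2855 CPM with a median of 515 at high altitude and 123 to 3319 with a median of 343 at low altitude. Its spleen libraries held 491 to 4525 with a median of 1562 and 393 to 4601 with a median of 748. Its breast muscle libraries held 19.3 to 219 with a median of 32.2 and 16.8 to 216 with a median of 24.7. H4 was highest in each high altitude group and L3 in each low altitude group.

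H4, H7 and L3 were the 3 highest heart libraries for 20 of the 22 genes and the 3 highest spleen libraries for 18. They were the 3 highest breast muscle libraries for 0 of the 22, where H1 also ranked high. Relative to each gene's median over the 18 libraries of a tissue, the median over the 22 genes was higher in heart by 4.33 (log2) for H4, 4.01 for L3, 3.80 for H7, 2.70 for H1 and 1.95 for H8. In spleen the same codes stood at 2.24, 2.16, 1.72, 1.01 and 0.95, with H6 at 0.99 above H8, and in breast muscle at 2.92, 3.15, 2.23, 3.57 and 1.46. H3 and L5 lay lowest in heart, at -1.67 and -1.77. The same codes were high in heart for the 30 genes, at 3.16 for L3, 2.92 for H4, 2.13 for H7, 1.60 for H1 and 1.30 for H8. Of the 131 other members, which include the 30, 55 were highest in H4, H7 or L3 in heart and 40 in spleen. Of the 22 genes, 21 were in heart and 22 in spleen. Since the 22 were picked by co-variation over these codes, a pattern by code that recurs across tissues follows from that choice. Of the 5 codes highest in heart for the 22 genes, 4 were from high altitude and 1 from low altitude.

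**Figure D4:**
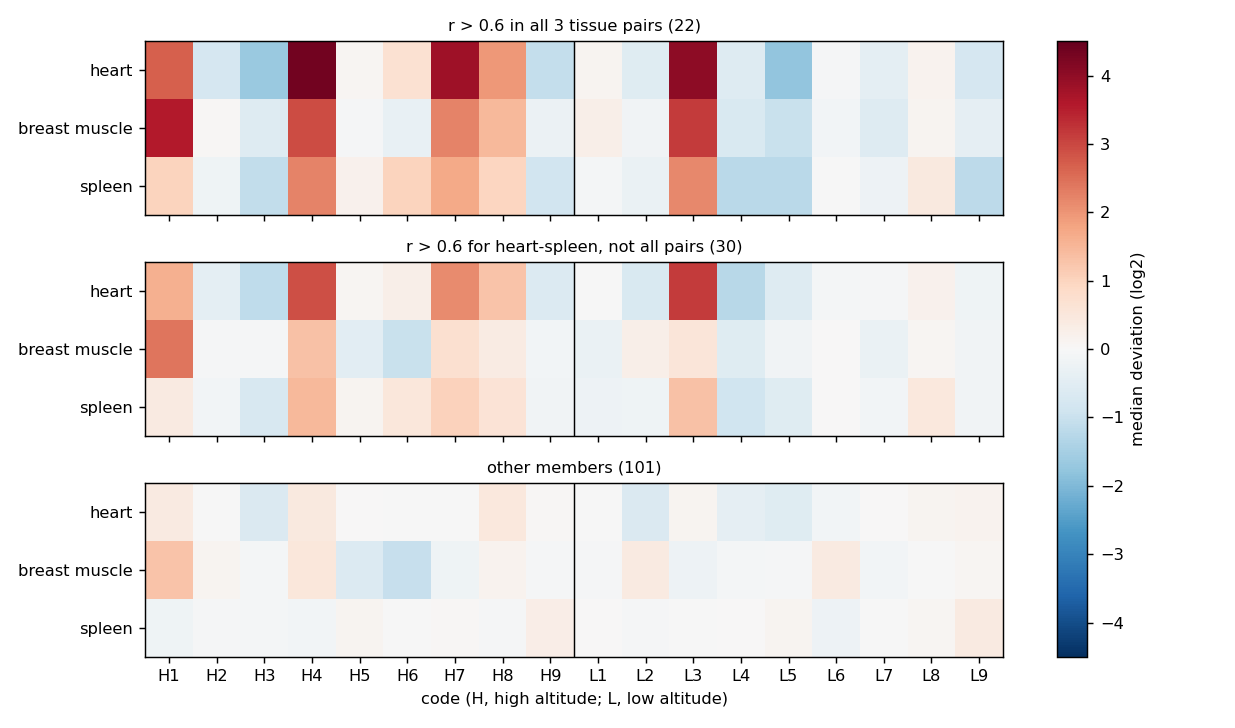
Median deviation of log2 CPM from each gene's own median over the 18 libraries of a tissue, by code (columns) and tissue (rows), for the groups of 22, 30 and 101 genes. Red marks libraries above and blue libraries below that median: H1, H4, H7, H8 and L3 are red in every tissue for the 22 genes, up to 4.33 in H4 heart, and the 101 genes are near 0 in most libraries.

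The highest library over the median library, for the median gene of the 22, was 27-fold in heart, 16.9-fold in breast muscle and 5.35-fold in spleen. For the 30 genes it was 9.91-fold, 5.85-fold and 2.99-fold, and for the 101 remaining genes 2.29-fold, 3.59-fold and 1.85-fold. None of the 22 genes (0), 6 of the 30 and 74 of the 101 had every heart and spleen library above every breast muscle library. The 22 genes alone took 3.41% of the counts of L3 heart, 3.31% of H4 and 2.44% of H7, while H1 held 0.879% and L5, the lowest, 0.0554%. When the rule was applied to medians over libraries in place of means, it chose 133 genes, 105 of them among the 153, but 8 of the 22. Without H4, H7 and L3 it chose 117 genes, 112 of them among the 153 and 9 of the 22. The 131 other members kept 97 and 103 genes under these changes. The 22 were picked by co-variation in these data, and H4, H7 and L3 after seeing the data. Nothing is therefore read from the difference between the 22 and the 131.

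Altitude of origin was not part of the rule, and low altitude libraries were tested against high altitude libraries within each tissue with edgeR's quasi-likelihood test over all genes. In the labels, breed and adaptation to heat change together with altitude, so their parts in this contrast cannot be told apart. In heart, none of the 153 members (0) passed a Benjamini-Hochberg adjusted p of 0.05, with 0 of 11872 genes passing (0%). In spleen, likewise 0 of 153 passed, with 0 of 13092 genes (0%). In breast muscle 0 of the 133 members that passed the filter on low counts were called, with 1 of 10120 genes (0.00988%). At an unadjusted p under 0.05 there were 11 members in heart, 5 higher and 6 lower at low altitude, or 7.19% of them against 6.05% of all genes. In breast muscle there were 17, 8 higher and 9 lower, or 12.8% against 18.2%, and in spleen 16, 11 higher and 5 lower, or 10.5% against 5.77%. These counts rest on single libraries to a large degree. Without L3, 43 members in heart had such a p, 4 higher and 39 lower, or 28.1% against 6.72% of all genes. In breast muscle 38 did, 9 higher and 29 lower (28.4% against 17.2%). In spleen 45 did, 10 higher and 35 lower (29.4% against 7.6%), so most were then lower where most had been higher. None of them (0) passed the adjusted threshold by edgeR without L3. Heart had 19 without H3 (12.4% against 10.9% of all genes) and 7 without L1 (4.58% against 4.76%). It had 6 without H4 or without H8 (3.92% against 4.73% and 3.99%), so in heart the share of all genes moved too. Spleen had 9 without H4, L1 or L4 (5.88% against 4.48%, 5.09% and 4.79%) and 10 without H7 (6.54% against 4.55%).

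The median log2 fold change of the members, low over high altitude, was -0.07 in heart and -0.05 in spleen, and 0.03 in breast muscle, against 0.00, 0.00 and -0.05 over all genes tested. In breast muscle the 20 members below the filter were left out of this median, and without the filter it was 0.02 over all 153. Leaving out 1 library at a time, the median ran from -0.13 without H3 to 0.00 without H4 in heart, from -0.12 without L8 to 0.01 without H4 in spleen, and from -0.07 without L3 to 0.13 without H1 in breast muscle, so its sign is not fixed. The groups by co-variation differed in their medians. For the 22 genes the median was -0.73 in heart, -0.21 in breast muscle (20 tested) and -0.65 in spleen, with 19 of 22, 14 of 20 and 20 of 22 genes lower at low altitude. These medians also hang on single libraries. Without L3 they were -2.42, -1.52 and -1.37, and without H4 they were -0.09, -0.03 and -0.28. With all libraries, limma-voom gave -0.96 in breast muscle. For the 131 other members the edgeR medians were -0.03, 0.06 and 0.04. The 22 genes share the same high libraries and are not separate observations of altitude. The 4 breast muscle libraries lowest in breast muscle-selective genes were H1, H4, H7 and H8. Without them, but with L3 kept, the median of the 22 turned to 1.03 and that of all members to 0.31. Without H4, H7 and L3, an alternative chosen after seeing the data, the medians of the 22 were negative in each tissue. They were -1.09 in heart (20 lower, 2 higher), -1.06 in breast muscle (18 lower, 0 higher) and -0.72 in spleen (19 lower, 3 higher). That fit left out L3 but kept H1 and H8, high altitude codes that were also high for the 22 genes. In heart these genes stood 2.70 (log2) above their median in H1 and 1.95 in H8. The size of the medians of the 22 thus depends on which codes are left out. They were negative in every fit run in heart and spleen. In breast muscle the sign turned only without H1, H4, H7 and H8, all from high altitude. That set of codes was left out in breast muscle alone, so its effect in heart and spleen was not tested.

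**Figure D5:**
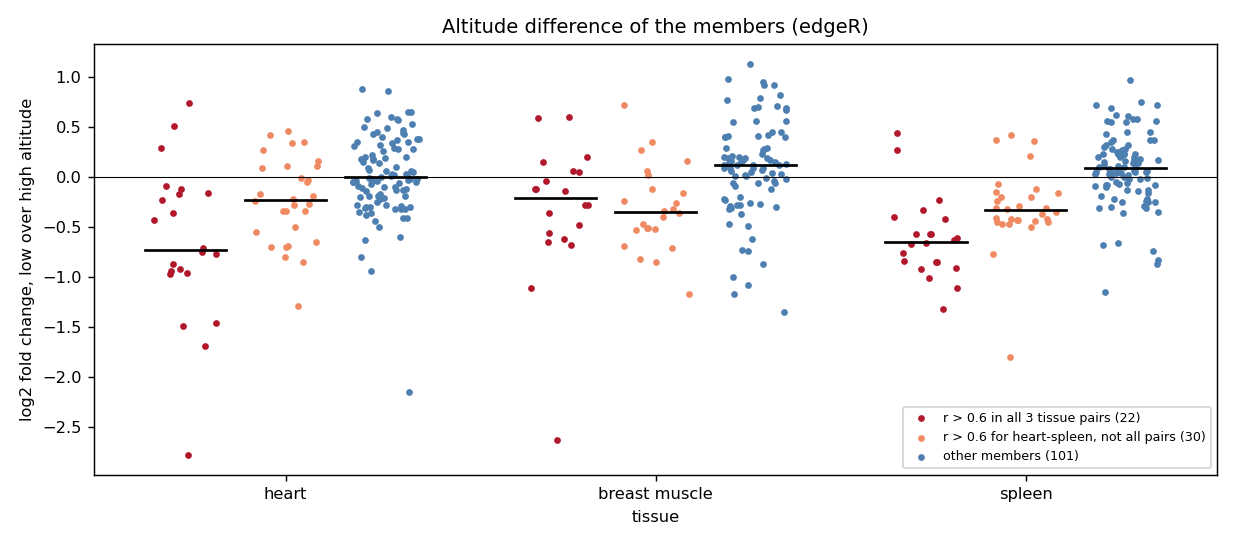
Log2 fold change of each member, low over high altitude, from edgeR, in 3 tissues and for the groups of 22, 30 and 101 genes, with black bars at the group medians. Points of the 22 genes lie mostly below 0 in heart and spleen, and none of the points passed the adjusted threshold.

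The members with the smallest p in each tissue did not pass the adjusted threshold. In heart, ENSGALG00000002549 had 4.63 to 111 CPM with a median of 12.2 at high altitude and 0.927 to 17.7 with a median of 4.502 at low altitude. The groups overlapped, and 8 of 9 low altitude libraries lay below the high altitude median. Its log2 fold change was -2.15 ± 0.63 (SE), with an adjusted p of 0.612 by edgeR (0.0427 to 0.929 over the alternatives). ENSGALG00000024272, the gene most tilted to spleen, had -2.79 ± 0.89 in heart at an adjusted p of 0.781 by edgeR, with 2.25 to 362 CPM at high and 0.891 to 19.8 at low altitude. In the other direction, ENSGALG00000017046 had 22.4 to 77.0 CPM with a median of 39.3 at high altitude and 11.5 to 201 with a median of 58.4 at low altitude. Its log2 fold change was 0.86 ± 0.32, and that of ENSGALG00000042949 was 0.49 ± 0.19, both at an adjusted p of 0.781 by edgeR. Without L1 the former was 0.53. The value of ENSGALG00000024272 was -1.58 by limma-voom.

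In breast muscle, ENSGALG00000012570 had 3.66 to 17.9 CPM with a median of 13.5 at high altitude and 9.93 to 21.3 with a median of 17.0 at low altitude. Its log2 fold change was 0.70 ± 0.21 at an adjusted p of 0.105 by edgeR (0.0336 to 0.296 over the alternatives). ENSGALG00000039193 had 0.229 to 1.72 CPM at high and 0.934 to 4.05 at low altitude. It differed by a log2 fold change of 1.13 ± 0.36 at an adjusted p of 0.113 by edgeR (0.0455 to 0.411). Without H3 both passed, at adjusted p-values of 0.0416 and 0.0455 by edgeR, but in that fit 455 of 10219 genes (4.45%) passed, against 2 of 136 members (1.47%). Lower at low altitude were ENSGALG00000009628, at -1.002 ± 0.32 with an adjusted p of 0.117 by edgeR, and ENSGALG00000024272, at -2.63 ± 0.89 with 0.134. Without H1, H4, H7 and H8 the former was -0.35 and the latter turned to 0.56; limma-voom gave -1.61 for the latter. All 4 genes overlapped between the altitudes.

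In spleen, ENSGALG00000004960 had 24.8 to 90.3 CPM with a median of 52.5 at high altitude and 50.3 to 118 with a median of 74.9 at low altitude. Its log2 fold change was 0.69 ± 0.21 at an adjusted p of 0.716 by edgeR, and 8 of 9 low altitude libraries lay above the high altitude median. ENSGALG00000007582 followed at 0.55 ± 0.20 with all 9 low altitude libraries above that median. Lower at low altitude were ENSGALG00000002549, at -1.16 ± 0.37 (-0.77 without H1), and ENSGALG00000038140, at -1.80 ± 0.70 (-2.71 without L3). Adjusted p-values of these 3 genes were 0.830, 0.758 and 0.836 by edgeR. ENSGALG00000002549 was thus among the lowest p-values in both heart and spleen, with 52.4 to 392 CPM in high and 33.3 to 117 in low altitude spleens.

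DESeq2, with its default replacement of outlying counts, called 8 of 153 members in heart, all lower at low altitude. Of all genes with an adjusted p there, 43 of 14191 (0.303%) were called. For ENSGALG00000045085 it gave a log2 fold change of -3.58, against -0.09 from edgeR, which replaces no counts. Without the replacement DESeq2 called 0 members in heart, beside 27 of 15444 genes with an adjusted p. It then gave no p for 20 members with an outlying count, among them 7 of the 8. In breast muscle it called 4 of 153 members, 2 in each direction, and 5 members had no adjusted p. Of all genes with an adjusted p there, 537 of 12423 (4.32%) were called. Without the replacement it called 2 of the 145 members given a p in breast muscle, ENSGALG00000012570 and ENSGALG00000039193. Of all genes with an adjusted p in that fit, 528 of 12191 were called. In spleen it called 0 members either way, beside 32 of 15814 genes with the replacement and 29 of 20441 without it. Limma-voom called 0 members in each tissue, and 0 of all genes tested.

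The dependence of the altitude difference on tissue was tested as an interaction over 36 libraries for each pair of tissues. The fit took these libraries as separate, although each code gives 1 library to both tissues. Libraries of the same code exceeded an r of 0.1 in 16 of 18 codes for heart and spleen. For heart and breast muscle 15 did, and for breast muscle and spleen 14. The own code was the best match in 13, 7 and 11 of 18. Fits that used the code, given in the last section, called 0 members. None of the members (0) passed the adjusted threshold by edgeR in any pair, nor did any gene. Unadjusted p-values under 0.05 occurred in 13 members for heart against breast muscle, where 10.7% of all genes had one, or 8.5% of the members. They occurred in 4 members (2.61%) for heart against spleen, where the share of all genes was 3.57%, and in 11 (7.19%) for breast muscle against spleen, where it was 12.5%. The smallest of these were in ENSGALG00000009628, with a difference of -1.23 ± 0.34 (log2) between breast muscle and spleen at an adjusted p of 0.111 by edgeR, and in ENSGALG00000012570, at 0.95 ± 0.28 with 0.142. For heart against breast muscle, ENSGALG00000002375 differed by -1.02 ± 0.33 and ENSGALG00000011740 by 1.65 ± 0.55, at adjusted p-values of 0.236 and 0.247 by edgeR. For heart against spleen, ENSGALG00000017046 differed by 1.498 ± 0.59 and ENSGALG00000011708 by 0.74 ± 0.33, both at an adjusted p of 1.0 by edgeR.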

How the data were processed

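The deposited files hold whole-number read counts per gene, 1 file per library, as the authors made them. The build galGal4 and the tools HISAT2 2.0.4, featureCounts, FastQC, Cuffdiff and Cufflinks are named, without role or order, per the submitters' processing notes. Libraries were stranded (TruSeq mRNA), per the labels' protocols; whether counting used strand is not given in the sources consulted, so overlapping, antisense and near-identical genes are uncertain. Library totals were 9305788 to 15204434 counts.

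CPM is the count over the library total, and log2 CPM uses a prior count of 2. Members and lists were chosen with earlier results of these data known. Altitude and its interaction with tissue were tested with edgeR 4.0.16 (R 4.3.3; TMM, default filter on low counts, robust quasi-likelihood, Benjamini-Hochberg adjustment over all genes tested). Standard errors are log2 fold changes over the square root of F. DESeq2 1.42.0 and limma-voom (limma 3.58.1), other scalings and filters, a replicate block and leaving out libraries were alternatives. The edgeR fits were also run on simulated counts drawn separately for each gene. These counts held no libraries high in many genes at once and no correlation within codes, so they do not show how such features affect the fits. Genes were named by rank: highest smaller mean, extreme heart to spleen ratio, smallest p per tissue and direction, smallest interaction p, nearest to the 8-fold minimum, extreme SD and highest r. The 18 lists of pathway and cell type genes written for this work could not be counted without symbols. Same-numbered H and L libraries were not treated as paired.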

Additional observations from a re-analysis of the deposited data

Results flagged for a closer look

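In sets of 9 libraries of 1 group, the gap of the highest or lowest library to its neighbour was set against the range of the set (Dixon's ratio above its 95% critical value). Of 74 sets, 13 met this. The rate of about 1 in 20 by chance is no yardstick here. The genes were chosen by means and co-variation to which high libraries such as L3 contribute, and the sets share libraries and genes. L3 was the highest library in 11 of the 13.

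For the share of the 153 genes, L3 stood apart in low altitude heart (5.35%, next 1.56%, ratio 0.864), breast muscle (0.196%, next 0.0913%, ratio 0.775) and spleen (6.55%, next 3.29%, ratio 0.76). For the share of the 22 co-varying genes the ratios of L3 were 0.964 in low altitude heart, 0.942 in low altitude breast muscle and 0.81 in low altitude spleen.

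In ENSGALG00000045085, L3 was the highest low altitude library in heart at 13.47 log2 CPM (next 7.20, ratio 0.74) and in breast muscle (ratio 0.57). In ENSGALG00000041621 it was the highest in heart (ratio 0.601), breast muscle (0.635) and spleen (0.603).

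The share of the 131 other members was highest in H1 among high altitude breast muscles (0.203%, next 0.108%, ratio 0.548). In ENSGALG00000033522, H5 was the lowest high altitude heart, at 5.01 log2 CPM (next 7.32, ratio 0.653).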

How the results depend on the processing

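The 153 members became 88 under TMM-scaled CPM, 244 without the 20 most abundant genes in the totals, 87 at a 12-fold minimum and 256 at a minimum of 10 CPM. The 22 genes co-varying in all 3 pairs became 11 without H4, H7 and L3, an alternative chosen after seeing the data. Members called between altitudes by DESeq2 were 8 in heart, where 0.303% of all genes were called, and 4 in breast muscle, where 4.32% were. Without outlier replacement (added after seeing the data) they were 2 in breast muscle, beside 528 of 12191 genes. Leaving out 1 library each, edgeR called 0 members throughout in heart and spleen and 0 to 2 in breast muscle. The 2 were called without H3, where 4.45% of all genes were called. With 1 library left out, 6 to 43 members had an unadjusted p under 0.05 in heart and 9 to 45 in spleen. In breast muscle 12 to 38 did, the 12 being 8.89% against 14.5% of all genes without H7. By DESeq2 they were 29 of 153 in heart, beside 1102 genes in all. The genes given a p there were 10375 higher and 9635 lower at low altitude, and only 14191 of them had an adjusted p. In breast muscle DESeq2 gave 27 of 153, beside 2451 genes in all. The genes given a p there were 8790 higher and 9741 lower, and only 12423 of them had an adjusted p. Without H4, H7 and L3, 23 of 153 members in heart had an unadjusted p under 0.05 by edgeR, against 437 of 11964 genes. In breast muscle that fit gave 28 of 133, against 1405 of 10237 genes. Without H1, H4, H7 and H8, ENSGALG00000024272 turned to 0.56 in breast muscle. With the H and L number as a replicate block, 14 of 153 members in heart had an unadjusted p under 0.05, against 931 of 11872 genes. In breast muscle 14 of 133 did (1537 of 10120 genes) and in spleen 13 of 153 (739 of 13092 genes), and 0 were called. Pairs of the same number exceeded an r of 0.1 in 5, 3 and 5 of 9 cases. Not every sample correlated best with its own number (3, 2 and 4 of 9 did). With the code as replicate block, the interaction count was 7 of 153 members for heart against breast muscle (1266 of 12373 genes). For heart against spleen it was 9 of 153 (645 of 13918 genes). Limma-voom with a correlation within codes gave 8 (1438 of 12373 genes) and 8 (660 of 13918 genes). Other size factors gave 2 for heart against spleen (499 of 13918 genes). In breast muscle, where the rule requires low levels, 20 members did not pass the filter and 17 had no count in at least 1 library; the part of depth was not tested.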
